A study of Mus musculus with 24 samples.

Results

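The 39 genes described here encode serum response factor (Srf), the actins and the proteins that bind, cross-link, anchor and turn over actin filaments. They were listed by name with earlier results of these data known. Each gene was followed by the probe set that names it alone and had the highest mean over all arrays. All 39 had such a probe set, of 18193 genes in the whole series. Of the 39, 37 passed the filter on low values, which 11777 genes of the series passed. The other two, Tgfb1i1 (the LIM adaptor Hic-5) and Fhl2 (a LIM-only cofactor), passed on 0 of 24 arrays. Their log2 levels ran from 2.76 to 3.40 and from 3.80 to 4.74, and they were not tested.

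The cells were macrophages grown from the bone marrow of C57Bl/6 mice and kept overnight in Dulbecco's medium, for which the labels name no serum. After a wash they received fresh medium, either serum-free or holding 5% serum of 1 kind (fetal calf, mouse or human), without or with 25 ng/ml lipopolysaccharide (LPS, a bacterial cell wall product that macrophages sense), and were harvested 4 h later. All sera had been heated at 56 °C for 30 min to inactivate complement, and each came from 1 supplier per the labels. Each of the 8 groups had 3 arrays, from experiments named G, H and I. The labels give neither the age or sex of the mice, nor how many were used, nor whether each experiment used its own. What the p-values measure is thus the spread between experiments, which may be technical.

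Srf is a transcription factor that binds a short DNA element called the CArG box, and it works with partners of 2 families. Myocardin-related factors (Mrtfa and Mrtfb) are held back by monomeric actin and reach the nucleus when actin is driven into filaments. Ternary complex factors (Elk1, Elk3, Elk4) respond to kinases and serve early genes such as Fos and Egr1. Serum lipids such as lysophosphatidic acid act through G protein-coupled receptors, and many genes of the filament system, Srf itself included, are known targets. In macrophages the filament system carries spreading, podosomes, migration and phagocytosis.

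Levels below are the log2 values of the deposited table, differences are differences of group means on that scale with the standard error (SE) of a limma fit, and a call is an adjusted p under 0.05. Array medians lay between 5.04 and 5.13. All 8 macrophage markers passed the filter, and their mean level ran from 10.7 to 11.3 over the arrays. Single ones moved. Mertk fell in human and mouse serum without LPS by 1.34 and 0.66 (adjusted p = 1.4e-06 and 0.004). Averaged over the media, LPS raised Mertk by 0.58 and Fcgr1 by 1.04, and lowered Cd68 and Csf1r by 0.39 and 0.30 (adjusted p 6.6e-14 to 2.8e-07). By medium, Mertk had -0.11 with LPS in no serum (adjusted p = 0.55, no call). It rose with LPS by 0.43, 0.82 and 1.17 in calf, mouse and human serum (adjusted p = 0.018, 8.0e-05 and 6.4e-07). Of the markers of other cells, 1 of 8 for fibroblasts (Pdgfrb), 1 of 6 for smooth muscle (Lmod1), 1 of 4 for endothelium, 1 of 4 for neutrophils, 0 of 3 for B cells and 0 of 3 for T cells passed. The fibroblast list averaged 3.83 to 4.07 on the arrays without LPS and 4.11 to 4.33 on those with it, the endothelial list 3.94 to 4.23 and 4.50 to 4.85, and the neutrophil list 3.79 to 4.24 and 3.94 to 4.96. The platelet list, of which 4 of 6 passed, averaged 6.54 to 6.72 with no serum, 6.50 to 6.85 in calf, 7.05 to 7.20 in mouse and 6.81 to 6.92 in human serum without LPS. Of those 4, Ppbp rose by 2.27 in mouse and 1.12 in human serum, and Pf4 by 0.30 in mouse serum (adjusted p 4.9e-08 to 0.001). Itga2b and Gp9 had no call in any serum without LPS. The part of these cells in the results was not tested. The 3' minus 5' difference of the actin control probe sets, a measure of RNA integrity, was 0.11 to 0.30 on all arrays. That of the Gapdh control probe sets was 1.36 to 2.00, with means of 1.67, 1.57, 1.45 and 1.62 without LPS and 1.84, 1.63, 1.69 and 1.73 with it (no, calf, mouse and human serum), higher with LPS in each medium, and its part in the LPS results was not tested. The labels also name 3 array batches, which follow the experiments except for calf serum without LPS, experiment H. Values by experiment are therefore also values within batches, with that exception.

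The windows before 4 genes that rose in human serum without LPS are shown first, because each holds the element that Srf binds. They are the 250 bases before a start in RefSeq (GRCm38.p6), 5′ to 3′ on the strand of the gene, with CArG boxes in capitals. Srf lies on the minus strand, with its window at chr17:46556163-46556412. That of Actg1 is on the minus strand at chr11:120348496-120348745, that of Cnn2 on the plus strand at chr10:79988350-79988599, and that of Lima1 on the minus strand at chr15:99820150-99820399.
Srf: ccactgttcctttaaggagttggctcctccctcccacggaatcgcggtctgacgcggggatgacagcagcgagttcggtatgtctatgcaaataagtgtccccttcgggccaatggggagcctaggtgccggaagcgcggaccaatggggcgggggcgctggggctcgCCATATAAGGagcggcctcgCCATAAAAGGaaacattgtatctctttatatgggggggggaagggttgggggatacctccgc
Actg1: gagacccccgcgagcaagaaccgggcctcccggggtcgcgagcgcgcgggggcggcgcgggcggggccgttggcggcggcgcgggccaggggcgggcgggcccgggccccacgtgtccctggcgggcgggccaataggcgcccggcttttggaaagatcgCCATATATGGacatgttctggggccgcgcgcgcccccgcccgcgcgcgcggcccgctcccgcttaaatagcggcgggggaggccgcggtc
Cnn2: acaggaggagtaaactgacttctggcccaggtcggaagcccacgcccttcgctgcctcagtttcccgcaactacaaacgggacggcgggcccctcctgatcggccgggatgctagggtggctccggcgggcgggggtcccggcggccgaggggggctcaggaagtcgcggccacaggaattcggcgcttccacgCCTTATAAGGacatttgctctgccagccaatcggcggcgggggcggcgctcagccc
Lima1: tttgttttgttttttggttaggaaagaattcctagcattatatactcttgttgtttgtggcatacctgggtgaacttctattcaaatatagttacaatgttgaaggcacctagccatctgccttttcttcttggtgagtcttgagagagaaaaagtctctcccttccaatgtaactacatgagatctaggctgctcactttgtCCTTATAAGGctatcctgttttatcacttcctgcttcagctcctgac

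The boxes of Srf begin 82 and 62 bases before the start used, that of Actg1 90, that of Cnn2 56 and that of Lima1 47. The starts used for Srf and Lima1 lie inside the spans of these genes (chr17:46546838-46558267 and chr15:99778468-99875477), so they are not the outermost starts. Cnn2 and Lima1 carry the same letters, CCTTATAAGG. The search covered the full window of 300 bases (250 before to 50 after the start), and a CArG box (CC, then 6 bases that are each A or T, then GG) reads as one on either strand, so each match counts once. RefSeq windows were matched for 35 of the 39 genes by symbol. At least 1 box lay in the windows of 9 of these 35 (25.7%), against 488 of all 27025 genes with a window (1.81%). The list was written from knowledge of Srf targets, so that share is a description of the list. Among the genes called higher in human serum without LPS, 4 of 15 with a window held a box, and among the others past the filter 4 of 19. Those 4 were Vcl (227 bases before the start), Myl6 (50), Myl9 (161) and Filip1l (62), and Fhl2 held a box in each of 2 windows (96 and 31). Myl6 and Filip1l also had 2 windows each, and held a box in only 1 of them. A match is a sequence feature and was not tested for binding.

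**Figure D1:**
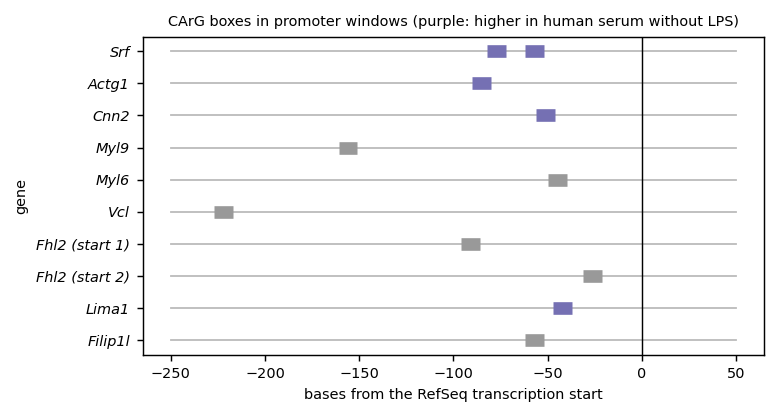
Position of CArG boxes (bars, drawn to scale) in the RefSeq windows of the genes that hold one, in bases from the transcription start (vertical line). Purple marks the 4 genes called higher in human serum without LPS, with boxes from 90 to 47 bases before the start, and grey the others.

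The first question was what each serum did to these genes in cells that saw no LPS. In human serum 16 of the 37 tested genes were higher than with no serum and 0 lower, where 4.73% of all genes tested were called higher and 5.69% lower. In mouse serum 11 were higher and 0 lower (4.47% and 5.35% of all genes), and in calf serum 8 were higher and 0 lower (0.696% and 2.27%). The largest rises were in Cnn2, Zyx and Srf in human serum, and in Pdlim7 in mouse serum. The median difference of the 37 genes was 0.27 in human, 0.09 in mouse and 0.12 in calf serum, against -0.03, -0.03 and 0.00 over all genes tested. The sera were compared with the same no serum arrays, so the 3 counts are not independent of each other. In bulk RNA a change in the share of a cell type and a change in RNA per cell cannot be told apart.

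Srf itself stood at 9.79, 9.98 and 10.16 with no serum in experiments G, H and I, and at 10.32, 10.08 and 10.57 in calf, at 10.40, 10.66 and 10.55 in mouse and at 10.85, 11.02 and 11.20 in human serum. Every mouse and human serum array lay above every no serum array, and the calf serum arrays overlapped them. The difference was 1.05 (SE 0.12, 2.07-fold, adjusted p = 2.4e-06) in human serum and 0.56 (adjusted p = 0.003) in mouse serum. In calf serum it was 0.35 (adjusted p = 0.17), and 0.39 (adjusted p = 0.037) with the array batch as a block.

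Among the actins, the cytoplasmic gamma actin gene Actg1 stood at 13.50, 13.46 and 13.49 with no serum, at 13.57, 13.55 and 13.62 in calf, at 13.62, 13.68 and 13.64 in mouse and at 13.72, 13.73 and 13.72 in human serum. None of the serum arrays overlapped those without serum. The rise was small in size, 0.24 (SE 0.03, 1.18-fold, adjusted p = 3.1e-05) in human and 0.16 (adjusted p = 0.002) in mouse serum, and 0.09 (adjusted p = 0.18) in calf serum. The cytoplasmic beta actin gene Actb stood at 13.82, 13.75 and 13.80 with no serum, at 13.89, 13.89 and 13.86 in calf, at 13.89, 13.91 and 13.82 in mouse and at 13.95, 13.93 and 13.86 in human serum. Its rise in human serum, 0.12 (adjusted p = 0.035), was lost when human serum G or H or no serum H or I was left out (adjusted p 0.061 to 0.17). It was also lost under either other scaling and with no filter (adjusted p 0.065 to 0.14). Acta2, the actin of smooth muscle, was near the filter at 4.97, 5.12 and 5.95 with no serum and at 4.89 to 5.77 in the sera, and its groups overlapped. Its difference in human serum was 0.11, with a 95% interval from -0.50 to 0.73.

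The calponin family holds actin-binding proteins that brake myosin (Cnn2, Cnn3) and the transgelins (Tagln, Tagln2), and Cnn2 moved most with serum. Cnn2 stood at 7.99, 8.33 and 8.25 with no serum, at 8.91, 8.95 and 9.33 in calf, at 9.002, 8.70 and 8.64 in mouse and at 9.46, 9.71 and 9.73 in human serum. The lowest array with serum was above the highest array without it. The difference was 1.44 (SE 0.16, 2.72-fold, adjusted p = 2.0e-06) in human, 0.87 (adjusted p = 0.002) in calf and 0.59 (adjusted p = 0.021) in mouse serum, the last lost without mouse serum G or no serum G (adjusted p 0.12 each).

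Tagln2 stood at 9.77, 9.90 and 9.69 with no serum, at 10.24, 10.23 and 10.25 in calf, at 10.49, 10.20 and 10.22 in mouse and at 10.25, 10.42 and 10.28 in human serum. All 9 serum arrays lay above the 3 others, and the 3 differences were 0.45, 0.52 and 0.53 (adjusted p 2.1e-04 to 0.002). With the mean of all its probe sets they were 0.07, 0.11 and 0.16 and not called. Cnn3 was below the filter on each of the 12 arrays without LPS, from 3.03 to 4.50. Tagln had no call in any serum, with differences from -0.15 to -0.01.

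Tropomyosins lie along the filament and set which proteins may bind it, and of the 4 only Tpm4 was called with serum in the absence of LPS. Tpm4 stood at 10.90, 10.94 and 10.82 with no serum, at 11.25, 11.38 and 11.40 in calf, at 11.24, 11.48 and 11.42 in mouse and at 11.57, 11.73 and 11.62 in human serum. Its groups with and without serum did not overlap, and the human serum arrays were above all the others. The differences were 0.46, 0.49 and 0.76 (SE 0.07; adjusted p = 1.9e-04, 2.3e-05 and 8.5e-08). Tpm1 differed by 0.38 in human serum (adjusted p = 0.058, and 0.007 with the experiment as a block). Tpm2 differed by 0.82 there with a 95% interval from -0.02 to 1.67, and Tpm3 by 0.07. Of the non-muscle myosin genes, the heavy chain gene Myh9 rose in mouse and human serum by 0.30 and 0.27 (adjusted p = 0.001 and 0.003). The light chain genes Myl6 and Myl9 had differences from -0.21 to 0.20 and no call.

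The adhesion plaque links filaments to integrins, and its genes are grouped here with those of LIM proteins. Of the 9 tested in this group, 5 were higher in human serum, against 4.73% of all genes tested. Zyx, zyxin, which repairs and crosslinks strained filaments, stood at 9.37, 9.28 and 9.43 with no serum, at 9.98, 9.76 and 9.69 in calf, at 10.16, 9.92 and 10.08 in mouse and at 10.48, 10.60 and 10.64 in human serum. Its levels did not overlap between no serum and any serum, nor between human serum and the other sera. The differences were 1.21 (SE 0.11, 2.31-fold, adjusted p = 1.2e-07) in human, 0.69 (adjusted p = 1.7e-04) in mouse and 0.44 (adjusted p = 0.029) in calf serum. The call in calf serum was lost without calf serum G or H or any of the 3 no serum arrays (adjusted p 0.052 to 0.18).

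Lima1 (the filament-bundling LIM protein EPLIN) stood at 9.86, 9.63 and 9.17 with no serum, at 10.45, 10.27 and 10.07 in calf, at 10.02, 9.88 and 9.95 in mouse and at 10.58, 10.64 and 10.36 in human serum. Experiment I was lowest with no serum, calf and human serum. Human serum gave 0.98 (SE 0.16, adjusted p = 2.7e-04) and calf serum 0.71 (adjusted p = 0.012), lost without calf serum G (adjusted p = 0.098) or no serum I (adjusted p = 0.12). Mouse serum gave 0.40 (adjusted p = 0.15), and 0.044 with the experiment as a block.

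Pdlim7 (the PDZ and LIM protein enigma) was highest in mouse serum on the probe set used. It stood at 6.01, 6.41 and 6.21 with no serum, at 6.52, 6.59 and 6.18 in calf, at 8.41, 7.94 and 8.08 in mouse and at 7.19, 7.17 and 6.85 in human serum. The mouse serum arrays were above every other array without LPS, and human serum was above no serum and calf serum. The differences were 1.94 (SE 0.21, 3.83-fold, adjusted p = 5.2e-07) in mouse and 0.86 (adjusted p = 0.008) in human serum, and 0.22 (adjusted p = 0.80) in calf serum. Pdlim5, a related PDZ and LIM protein, rose by 0.52, 0.61 and 0.76 in calf, mouse and human serum (adjusted p = 7.0e-04, 3.4e-05 and 2.4e-06). Vasp, which promotes filament elongation, rose by 0.51 in human serum (adjusted p = 0.009, and 0.058 without no serum H). Vcl (vinculin, which couples talin to actin) differed by 0.88 in human serum with a 95% interval from 0.17 to 1.58. Its adjusted p was 0.11, and 0.006 with the experiment as a block, with human serum at 10.98, 9.76 and 10.05 against 9.65, 9.69 and 8.82. Filip1l, Fhl3 and the talin gene Tln1 had no call, with differences from -0.26 to 0.40 over the 3 sera.

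Of the cross-linkers, Actn1 (alpha-actinin 1) stood at 10.41, 10.47 and 10.48 with no serum, at 10.89, 10.89 and 11.18 in calf, at 10.88, 10.93 and 10.90 in mouse and at 10.70, 10.998 and 10.83 in human serum. The 9 serum arrays were all above the 3 others. The differences were 0.53, 0.45 and 0.39 (adjusted p = 0.002, 0.003 and 0.011), the last at 0.074 without human serum H. Flna (filamin A) rose by 0.33 in human serum (adjusted p = 0.018), a call lost without human serum G or no serum G or H (adjusted p 0.059 to 0.13). Its 0.26 in mouse serum had an adjusted p of 0.074, and 0.040 with the experiment as a block. Actn4 differed by 0.10 to 0.15 with no call.

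Of the 9 genes of filament turnover 2 were called in human serum, and both rose. Of all genes tested, 4.73% were called higher there and 5.69% lower. Coro1a, the leukocyte coronin, stood at 12.34, 12.41 and 12.41 with no serum, at 12.78, 12.88 and 12.78 in calf, at 12.34, 12.35 and 12.32 in mouse and at 12.89, 12.91 and 12.76 in human serum. Mouse serum arrays lay with those of no serum, and the calf and human serum arrays lay above both. The rise was 0.43 in calf and 0.47 in human serum (adjusted p = 6.8e-04 and 1.1e-04), against -0.05 in mouse serum. Wdr1, a cofilin helper, rose by 0.43 in human serum (adjusted p = 0.031), lost without human serum G or no serum H or I (adjusted p 0.094 to 0.18). In mouse serum Wdr1 had 0.26 (adjusted p = 0.25, and 0.005 with the experiment as a block).

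Coro1c, a more widely expressed coronin, stood at 13.02, 12.91 and 13.00 with no serum, at 13.07, 13.10 and 13.16 in calf, at 12.98, 12.97 and 12.95 in mouse and at 13.14, 12.96 and 12.98 in human serum, and had no call. Neither did Cfl1 (cofilin, which severs filaments), Pfn1 (profilin, which supplies monomers), Capg, Gsn, Arpc5 or the formin gene Diaph1, whose differences ran from -0.03 to 0.20. Pfn1 reached an adjusted p of 0.036 in human serum with the experiment as a block (difference 0.14). Lmna, the gene of the nuclear lamins A and C, stood at 12.87, 12.96 and 12.81 with no serum, at 13.09, 13.05 and 12.97 in calf, at 13.24, 13.19 and 13.15 in mouse and at 13.12, 13.06 and 13.00 in human serum. All serum arrays were above those without serum. Its call in mouse serum, 0.32 (adjusted p = 0.048), did not hold in 16 of the 24 fits that each left out 1 array (adjusted p 0.051 to 0.16), the 6 arrays of mouse serum and no serum among them.

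Whichever array was left out, 11 of the 16 calls held in human, 9 of 11 in mouse and 6 of 8 in calf serum. With the experiment as a block 19 genes were called in human and 14 in mouse serum. The share of all genes called in that fit is not given here, so the added calls are not a trait of these genes.

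**Figure D2:**
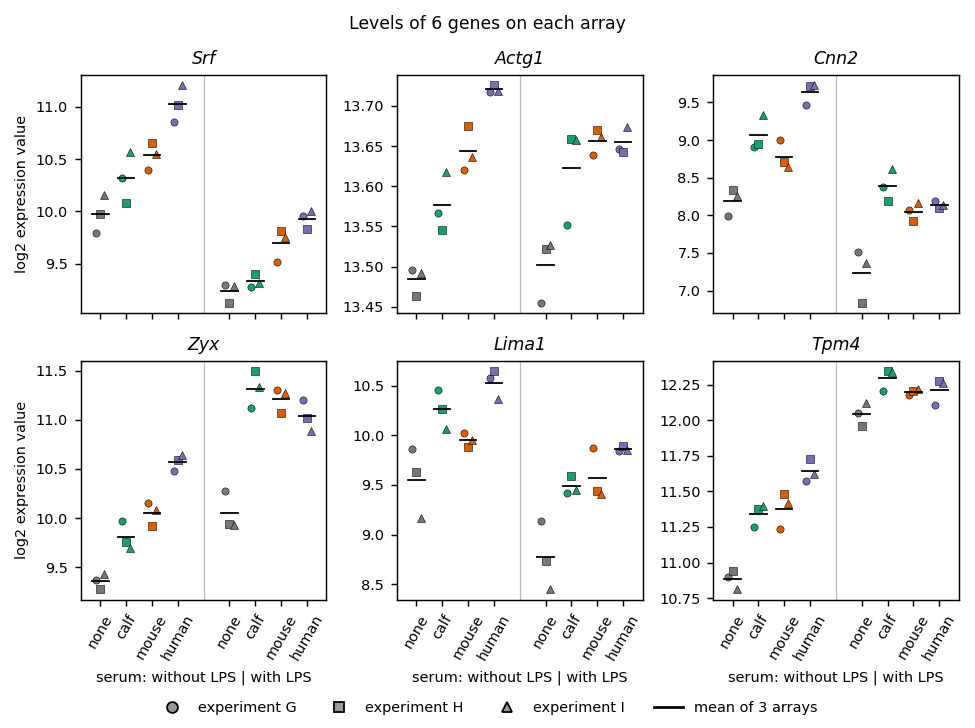
Log2 level of Srf, Actg1, Cnn2, Zyx, Lima1 and Tpm4 on each array (symbol: experiment) by serum, without LPS at left and with LPS at right of each panel, with the mean of 3 arrays as a line. Without LPS the human serum mean is the highest for each of the 6 genes, 11.02 for Srf against 9.98 with no serum, and the vertical scales differ between panels.

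**Figure D3:**
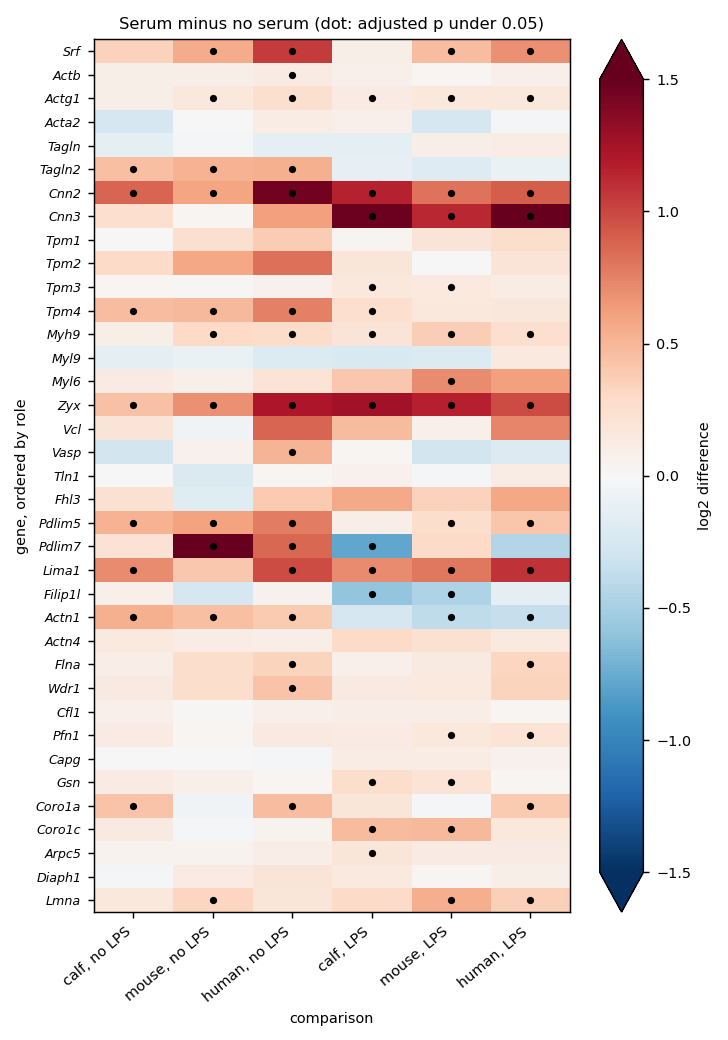
Log2 difference between each serum and no serum, without and with LPS (columns), for the 37 genes past the filter ordered by role (rows). Red is higher in serum, dots mark adjusted p under 0.05, and colours end at 1.5 (Pdlim7 in mouse serum, 1.94, and Cnn3 in human serum with LPS, 1.54, lie beyond). No dot lies on a blue cell in the 3 columns without LPS.

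The sera were then set against each other, without LPS. Human serum gave 10 genes higher and 0 lower than calf serum (7.11% and 7.59% of all genes tested) and 7 higher and 1 lower than mouse serum (2.69% and 2.56%). Mouse serum gave 2 higher and 1 lower than calf serum (5.05% and 4.57%). These comparisons share arrays with each other and with those against no serum.

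Zyx was higher in human than in calf serum by 0.76 (adjusted p = 3.8e-05) and than in mouse serum by 0.52 (adjusted p = 0.006). Srf was higher in human than in calf serum by 0.70 (adjusted p = 2.3e-04). Its difference between human and mouse serum, 0.49 (adjusted p = 0.016), was lost without human serum I or mouse serum G or I (adjusted p 0.051 to 0.10). Vasp was higher by 0.79 in human than in calf serum (adjusted p = 8.3e-05). Cnn2 was higher by 0.85 in human than in mouse serum (adjusted p = 0.002). Its 0.57 over calf serum (adjusted p = 0.020) was lost without calf serum G or H or human serum H or I (adjusted p 0.067 to 0.087).

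Mouse serum differed from the others in Pdlim7, which was 1.71 above calf serum (adjusted p = 2.4e-06) and 1.07 above human serum (adjusted p = 0.002), and in Coro1a. The Pdlim7 values are those of the probe set used. A second, lower-level one rose by similar amounts in mouse and human serum, as given under the other observations. Coro1a was 0.48 below calf serum (adjusted p = 5.4e-05) and 0.52 below human serum (adjusted p = 4.6e-05). Tpm4 was 0.30 higher in human than in calf serum (adjusted p = 0.004), and Actg1 0.14 (adjusted p = 0.004). Calls for Tpm4, Vasp and Lima1 between human and mouse serum (0.26, 0.44 and 0.58; adjusted p 0.024 to 0.041) were each lost without any of several single arrays of these groups, and, for Vasp and Lima1, without human serum with LPS H (adjusted p 0.050 to 0.23 in all). The same held between human and calf serum for Tpm1, Myh9, Pdlim7 and Diaph1 (0.39, 0.18, 0.64 and 0.23; adjusted p 0.036 to 0.039), which reached 0.055 to 0.24 without single arrays of these groups. Between mouse and calf serum it held for Myh9 (0.21; adjusted p = 0.027), which reached 0.060 to 0.18. Vcl was higher in human than in mouse and calf serum with the experiment as a block (0.93 and 0.68; adjusted p = 0.006 and 0.025), where without the block the adjusted p was 0.13 and 0.20. In that fit Wdr1 was also called between human and calf serum (0.29; adjusted p = 0.002 against 0.13) and Vasp between mouse and calf serum (0.35; adjusted p = 0.027 against 0.092).

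LPS moved the genes in both directions. Averaged over the 4 media, 13 of the 37 genes were higher and 17 lower with LPS, where 28.9% and 50.5% of all genes tested were called. Cnn3 and Myl9, among the 13, passed the filter through arrays with LPS alone and so had to be higher with it. The counts that follow leave them out, with 11 of 35 genes higher and 17 lower on average. Filip1l, Zyx, Tpm4, Tagln, Tagln2, Vasp and Actn1 rose, and Cnn2, Srf, Coro1c, Coro1a, Lmna and Lima1 fell. The counts higher and lower were 8 and 15 with no serum (19.8% and 39.1%), 10 and 14 in calf (20.7% and 37.8%), 9 and 13 in mouse (17.8% and 33.8%) and 6 and 15 in human serum (18.4% and 35.5%). These counts were near those of all genes in their share lower, and the median of the 35 genes, averaged over media, was -0.10 against -0.18.

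The media used separate arrays, but from the same experiments G, H and I and with a shared estimate of the spread. Calls in different media are therefore not independent. In each of the 4 media, LPS raised Actn1, Filip1l, Tagln, Tagln2, Tpm4 and Zyx (6 genes) and lowered Actn4, Capg, Cnn2, Coro1a, Coro1c, Flna, Gsn, Lmna, Myh9, Pfn1, Srf and Tpm1 (12 genes). None of the listed genes was called higher in 1 medium and lower in another. How often all genes tested were called alike in the 4 media was not counted, so these counts only describe the list. The call of Tagln with no serum was lost without no serum H (adjusted p = 0.083) or no serum with LPS G (0.065). The Flna call with no serum was lost without no serum with LPS G (0.061), and that in human serum without human serum G (0.12) or human serum with LPS I (0.092).

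**Figure D4:**
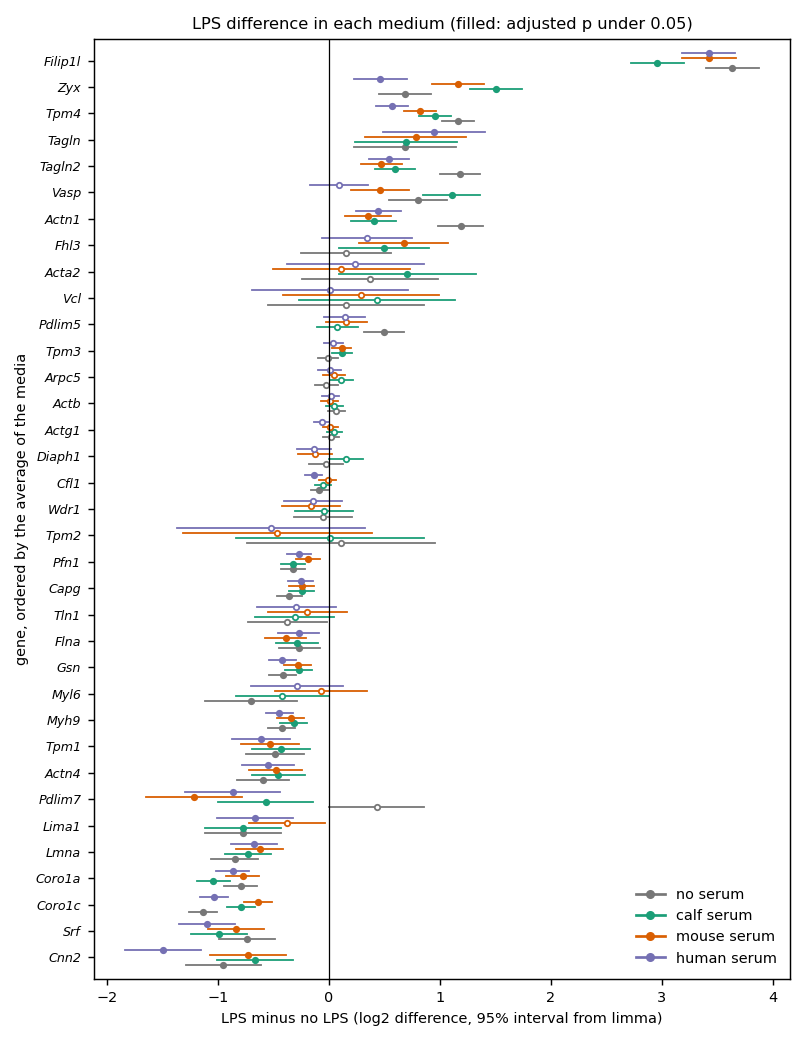
LPS minus no LPS as a log2 difference with its 95% interval, for 35 genes (rows, ordered by the average of the media; Cnn3 and Myl9, kept through LPS arrays alone, are not drawn) in each medium (colours). Filled points have adjusted p under 0.05. Filip1l (2.96 to 3.63) lies far to the right, Srf and Cnn2 at the bottom, and Pdlim7 has its no serum point (0.43, no call) on the other side of zero from its points in the 3 sera.

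Srf with LPS stood at 9.30, 9.13 and 9.29 with no serum, at 9.28, 9.40 and 9.32 in calf, at 9.52, 9.82 and 9.76 in mouse and at 9.95, 9.83 and 10.004 in human serum. Each group lay below its counterpart without LPS, with no overlap. The average difference was -0.92 (SE 0.06, a 1.89-fold fall, adjusted p = 2.5e-12), and by medium it ran from -1.10 to -0.74.

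The cytoplasmic actin genes did not follow Srf. Their levels lay toward the top of the deposited values, which end at 14.84. Whether this limits their differences with serum or LPS was not tested. With LPS, Actb stood at 13.85, 13.91 and 13.79 with no serum, at 13.90, 13.95 and 13.93 in calf, at 13.88, 13.84 and 13.93 in mouse and at 13.93, 13.98 and 13.88 in human serum. Actg1 stood at 13.46, 13.52 and 13.53, at 13.55, 13.66 and 13.66, at 13.64, 13.67 and 13.66 and at 13.65, 13.64 and 13.67 in the same order. These ranges overlapped those without LPS, except for Actb in calf serum, where the LPS arrays were higher, and for Actg1 in human serum, where they were lower. The average differences were 0.03 (95% interval -0.01 to 0.07, adjusted p = 0.10) for Actb and 0.00 (-0.03 to 0.04) for Actg1. With arrays centred on their medians Actb was called higher, by 0.07 (adjusted p = 0.005), and with the mean of its probe sets by 0.05 (0.005).

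Acta2 with LPS stood at 6.08, 5.66 and 5.43 with no serum, at 5.76, 5.28 and 6.36 in calf, at 4.91, 5.66 and 5.82 in mouse and at 5.49, 5.78 and 5.84 in human serum. Its groups without and with LPS overlapped in each of the 4 media. The average rise of 0.36 (adjusted p = 0.032) was lost in 9 of the 24 fits that left out 1 array (adjusted p 0.052 to 0.073). The rise in calf serum, 0.71 (adjusted p = 0.046), was also lost in 9 (0.050 to 0.25), and with the array batch as a block (0.063). Tagln, the other gene known from smooth muscle, rose on average by 0.78 (SE 0.11, adjusted p = 1.1e-06). The smooth muscle list averaged 3.95 to 4.34 over all 24 arrays, and Cnn1, Actg2 and Smtn of that list passed the filter on 0 arrays. Myh11 and Des of that list did not pass the filter either. Lmod1 of that list was above the filter on 5 arrays, all with LPS, with group means of 4.52 to 4.66 without LPS and 5.01 to 5.14 with it. Its part in the rises of Acta2 and Tagln was not tested.

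Cnn3 passed the filter only through the arrays with LPS, so its levels are given as a description, with no test of LPS. It stood at 3.74, 3.53 and 3.68 with no serum, at 3.53, 3.94 and 4.23 in calf, at 3.03, 3.91 and 4.10 in mouse and at 4.50, 3.90 and 4.40 in human serum without LPS. With LPS it stood at 8.28, 7.08 and 7.74, at 8.99, 9.40 and 9.12, at 8.75, 8.67 and 9.07 and at 9.22, 9.25 and 9.27. Every array with LPS was above every array without it, and those without LPS were all below the filter.

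Cnn2 went the other way. With LPS it stood at 7.51, 6.84 and 7.36 with no serum, at 8.37, 8.19 and 8.61 in calf, at 8.06, 7.93 and 8.16 in mouse and at 8.19, 8.10 and 8.14 in human serum, below each counterpart without overlap. Its average difference was -0.96 (SE 0.08, adjusted p = 2.7e-10), from -1.49 in human to -0.67 in calf serum. Tagln2 with LPS stood at 11.05, 10.99 and 10.86 with no serum, at 10.93, 10.78 and 10.81 in calf, at 10.76, 10.88 and 10.69 in mouse and at 10.85, 10.94 and 10.80 in human serum. All 12 LPS arrays were above all arrays without LPS, and the average difference was 0.70 (SE 0.04, adjusted p = 8.6e-13).

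The tropomyosins were split. Tpm4 with LPS stood at 12.05, 11.96 and 12.12 with no serum, at 12.21, 12.34 and 12.34 in calf, at 12.17, 12.21 and 12.22 in mouse and at 12.11, 12.27 and 12.26 in human serum, above every array without LPS. Its average difference was 0.88 (SE 0.03, adjusted p = 1.2e-16). Tpm1 fell by 0.51 (adjusted p = 1.1e-07), Tpm2 had -0.22 with a 95% interval from -0.64 to 0.21, and Tpm3 had 0.07 (adjusted p = 0.007), which was 0.03 (0.27) after quantile normalization. Of the myosin genes, Myh9 fell by 0.38 (adjusted p = 3.9e-11) while Myl9, above the filter on 4 arrays, all with LPS, ran from 4.41 to 5.05 without LPS and from 4.71 to 5.45 with it and was not tested for LPS. Myl6 fell by 0.37 (adjusted p = 0.002), and had -0.10 (0.41) after quantile normalization.

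Among the adhesion plaque and LIM group, Filip1l (a filamin-interacting protein) stood at 7.43, 7.35 and 7.43 with no serum, at 7.58, 7.30 and 7.58 in calf, at 7.05, 7.07 and 7.33 in mouse and at 7.51, 7.52 and 7.36 in human serum. With LPS it stood at 11.05, 11.12 and 10.95, at 10.63, 10.21 and 10.48, at 10.59, 10.57 and 10.55 and at 10.88, 11.01 and 10.76. The lowest array with LPS was thus far above the highest without it, and the average difference was 3.36 (SE 0.06, 10.3-fold, adjusted p = 2.5e-23). The fibroblast, endothelial and neutrophil marker levels with and without LPS are given above.

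Zyx with LPS stood at 10.28, 9.94 and 9.94 with no serum, at 11.12, 11.49 and 11.33 in calf, at 11.30, 11.07 and 11.27 in mouse and at 11.20, 11.02 and 10.88 in human serum. Each group was above its counterpart, and no serum was the lowest of the 4. The average difference was 0.95 (SE 0.06, adjusted p = 3.4e-13), from 0.46 in human to 1.504 in calf serum. Vasp rose on average by 0.61 (SE 0.06, adjusted p = 5.6e-09), with 0.09 (adjusted p = 0.56) in human serum. Fhl3 rose by 0.42 and Pdlim5 by 0.22 (adjusted p = 5.3e-04 and 1.2e-04). Vcl had 0.22 (adjusted p = 0.24), and 0.25 (0.049) with the array batch as a block.

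Lima1 with LPS stood at 9.13, 8.74 and 8.46 with no serum, at 9.42, 9.59 and 9.45 in calf, at 9.87, 9.44 and 9.41 in mouse and at 9.84, 9.89 and 9.85 in human serum. Its groups overlapped between no LPS and LPS in none of the media, and the average difference was -0.65 (SE 0.08, adjusted p = 1.8e-07). In mouse serum alone it had -0.38 (adjusted p = 0.057, and 0.016 with the experiment as a block). Pdlim7 with LPS stood at 6.55, 6.71 and 6.65 with no serum, at 5.86, 5.98 and 5.75 in calf, at 6.84, 6.90 and 7.04 in mouse and at 6.56, 6.45 and 5.59 in human serum. The sera fell below their counterparts and no serum lay above its own, with an average of -0.56 (SE 0.10, adjusted p = 4.1e-05). With the mean of its probe sets that average was -0.16 (adjusted p = 0.052). In calf serum its call (-0.57; adjusted p = 0.022) was lost without calf serum G or H or calf serum with LPS I (0.060 to 0.085). It was also lost after quantile normalization (-0.33; 0.20) and with the mean of its probe sets (-0.01; 0.94). Tln1 fell on average by 0.29 (adjusted p = 0.004), with no call in any single medium and -0.03 (0.68) with the mean of its probe sets. With the experiment as a block it was called with no serum, in calf and in human serum (-0.38, -0.31 and -0.29; adjusted p = 4.6e-04, 0.003 and 0.004).

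Of the cross-linkers, Actn1 with LPS stood at 11.77, 11.42 and 11.73 with no serum, at 11.40, 11.23 and 11.54 in calf, at 11.20, 11.35 and 11.21 in mouse and at 11.24, 11.30 and 11.32 in human serum, above each counterpart. Its average difference was 0.60 (SE 0.05, adjusted p = 1.5e-10). Actn4 and Flna fell by 0.52 and 0.31 (adjusted p = 2.1e-08 and 1.9e-06), so the cross-linkers did not move as a group.

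The genes of filament turnover were lower or not called, with 6 of 9 lower and 0 higher on average, against 50.5% of all genes lower. Coro1a with LPS stood at 11.47, 11.77 and 11.54 with no serum, at 11.72, 11.91 and 11.68 in calf, at 11.67, 11.55 and 11.46 in mouse and at 12.01, 11.93 and 12.02 in human serum. Coro1c stood at 11.74, 11.80 and 11.98, at 12.28, 12.36 and 12.30, at 12.34, 12.35 and 12.29 and at 11.89, 11.98 and 12.12 in the same order. Every LPS array of these coronin genes was below every array without LPS, and the average differences were -0.87 and -0.90 (SE 0.04 and 0.03; adjusted p = 2.8e-16 and 6.6e-18). Gsn (gelsolin), Capg (a capping protein) and Pfn1 fell by 0.35, 0.28 and 0.28 (adjusted p 2.4e-10 to 2.7e-09), and Cfl1 by 0.07 (7.2e-04). Wdr1, Arpc5 (an Arp2/3 subunit) and Diaph1 had -0.10, 0.04 and -0.03 with no call. Wdr1 had an adjusted p of 0.004 with the experiment as a block and was lower by 0.19 (0.009) after quantile normalization. Diaph1 was lower by 0.10 (0.017) after that normalization, and Arpc5 higher by 0.07 (0.028) with centred arrays. With the mean of its probe sets Arpc5 was higher by 0.42 (7.3e-07) and Diaph1 lower by 0.20 (2.5e-05). Lmna with LPS stood at 12.19, 11.89 and 11.996 with no serum, at 12.51, 12.13 and 12.28 in calf, at 12.72, 12.53 and 12.47 in mouse and at 12.66, 12.19 and 12.30 in human serum, below every array without LPS. The average was -0.72 (SE 0.05, adjusted p = 7.4e-12), while 2 low-level probe sets of Lmna rose, by 0.57 and 0.35.

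Leaving out any single array kept 27 of the 28 calls of the average LPS difference. By medium it kept 20 of 23 with no serum, 20 of 24 in calf, 20 of 22 in mouse and 20 of 21 in human serum. The others lost were Cfl1 with no serum (adjusted p 0.053 to 0.24 without no serum G or I or no serum with LPS H or I), and Tpm3 and Fhl3 in calf and mouse serum (0.051 to 0.12).

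Serum was next compared with no serum among the LPS-treated cells. With LPS, calf serum gave 11 genes higher and 2 lower than no serum (5.00% and 5.86% of all genes tested), mouse serum 14 and 2 (6.84% and 6.58%), and human serum 12 and 1 (2.60% and 2.64%). Cnn3, Cnn2, Zyx and Lima1 showed the largest rises. The medians were 0.14, 0.15 and 0.15, against 0.03, 0.02 and 0.01 over all genes.

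Cnn3 was higher by 1.47, 1.13 and 1.54 (SE 0.27; adjusted p = 8.1e-04, 0.006 and 7.8e-04) in calf, mouse and human serum, the second at 0.060 without no serum with LPS H. Here every array was above the filter. The probe set used for Cnn3 is among those marked for possible cross-hybridisation. Zyx was higher by 1.26, 1.16 and 0.98 (SE 0.11; adjusted p 8.0e-08 to 4.2e-06), Cnn2 by 1.15, 0.81 and 0.90 (adjusted p 4.1e-05 to 0.001) and Lima1 by 0.71, 0.80 and 1.08 (adjusted p 1.3e-04 to 0.006). From the levels above, each of these 4 genes had its lowest 3 LPS arrays in the no serum group. Srf was higher by 0.69 in human serum (adjusted p = 8.0e-04) and by 0.46 in mouse serum (adjusted p = 0.013), the latter lost without mouse serum with LPS H or I or no serum with LPS H (0.051 to 0.065). In calf serum it had 0.09 (adjusted p = 0.73).

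Coro1c was higher by 0.48 each in calf and mouse serum (adjusted p = 1.1e-05 and 5.9e-06), and Coro1a by 0.39 in human serum (adjusted p = 0.001). Lmna was higher by 0.54 in mouse serum (adjusted p = 6.1e-04). Actg1 was higher by 0.12, 0.15 and 0.15 (adjusted p 0.002 to 0.018), in calf serum lost without calf serum with LPS H or I or no serum with LPS G (0.086 to 0.11). Myh9 was higher by 0.19, 0.37 and 0.25 (adjusted p = 0.035, 9.5e-05 and 0.010). Filip1l was lower by 0.60 in calf and 0.47 in mouse serum (adjusted p = 0.001 and 0.008).

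Actn1 was lower by 0.38 in mouse and 0.35 in human serum (adjusted p = 0.010 and 0.038), the reverse of its rise with serum in the absence of LPS. These calls were lost without no serum with LPS G (adjusted p 0.067 in mouse and 0.19 in human serum) or I (0.055 and 0.16), and the latter also without any human serum array with LPS (0.074 to 0.14). Pdlim7 was lower by 0.78 in calf serum (adjusted p = 0.016), lost without calf serum with LPS I (0.057) or no serum with LPS H (0.055), and -0.18 (0.54) with the mean of its probe sets.

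Many of the smaller calls rested on single arrays. Whichever array was left out, 7 of 13 calls held in calf, 8 of 16 in mouse and 8 of 13 in human serum. Beside those named above, the calls not held were Tpm3, Tpm4, Myh9 and Arpc5 in calf serum (0.16 to 0.25; adjusted p 0.051 to 0.16 without single arrays of calf serum or no serum with LPS). In mouse serum they were Tpm3, Myl6, Pdlim5, Pfn1 and Gsn (0.14 to 0.71; up to 0.24), and in human serum Myh9, Flna, Pfn1 and Lmna (0.20 to 0.36; up to 0.31 without human serum with LPS G). With the experiment as a block, calf serum had 16 calls, among them Fhl3, Cfl1 and Lmna (adjusted p = 0.034, 0.041 and 0.013). Human serum had 15, among them Vcl and Wdr1 (0.035 and 0.001), and mouse serum 17, among them Arpc5 (0.040). These blocked counts also stand without the share of all genes called in that fit.

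Whether LPS acted differently with serum than without was tested as the difference between the LPS differences. In calf serum 2 genes had a higher and 3 a lower value than with no serum (0.900% and 0.900% of all genes tested). In mouse serum the counts were 1 and 4 (3.39% and 3.05%), and in human serum 0 and 5 (2.50% and 2.46%). Tagln2 and Actn1 rose less with LPS in the sera, Pdlim7 went down with LPS in mouse and human serum, and Coro1c fell less in calf and mouse serum.

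Actn1 rose with LPS by 1.19 with no serum and by 0.40, 0.35 and 0.44 in calf, mouse and human serum. The differences between these responses were -0.78, -0.83 and -0.74 (SE 0.14; adjusted p = 0.002, 4.0e-04 and 0.002). Tagln2 rose by 1.18 with no serum and by 0.60, 0.47 and 0.54 in the sera, with differences of -0.58, -0.71 and -0.63 (SE 0.12; adjusted p = 0.012, 6.3e-04 and 0.002). With the mean of the Tagln2 probe sets these were -0.03, -0.18 and -0.14 and not called. Before LPS these genes were lower with no serum than in any serum, and after it they were not.

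Tpm4 rose by 1.16 with no serum and by 0.57 in human serum, a difference of -0.59 (SE 0.10, adjusted p = 5.7e-04). In mouse serum the difference was -0.34 (adjusted p = 0.041), lost in 9 of the 24 fits that left out 1 array (0.063 to 0.12), all of them arrays of mouse serum and no serum. Pdlim7 had 0.43 with no serum (adjusted p = 0.079), -1.22 in mouse and -0.87 in human serum, and the differences were -1.65 and -1.30 (SE 0.29; adjusted p = 7.2e-04 and 0.008). With the mean of its probe sets that in human serum was -0.48 (adjusted p = 0.22). Vasp rose by 0.80 with no serum and had 0.09 in human serum, a difference of -0.71 (adjusted p = 0.017), lost without human serum with LPS G, no serum H or no serum with LPS I (0.052 to 0.057).

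Zyx had a larger rise in calf serum, 1.504 against 0.69 with no serum, a difference of 0.82 (SE 0.16, adjusted p = 0.006). In mouse serum it was 0.48 (adjusted p = 0.087), and in human serum -0.22 (0.54). Coro1c fell by 1.14 with no serum and by 0.64 in mouse serum, a difference of 0.50 (SE 0.09, adjusted p = 5.8e-04). In calf serum it was 0.35 (adjusted p = 0.038), lost in 9 of the 24 fits that left out 1 array (0.052 to 0.11). Filip1l rose by 2.96 in calf serum against 3.63 with no serum, a difference of -0.68 (adjusted p = 0.027), lost without calf serum G or I, calf serum with LPS H, no serum H, or no serum with LPS G or H (0.061 to 0.10).

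**Figure D5:**
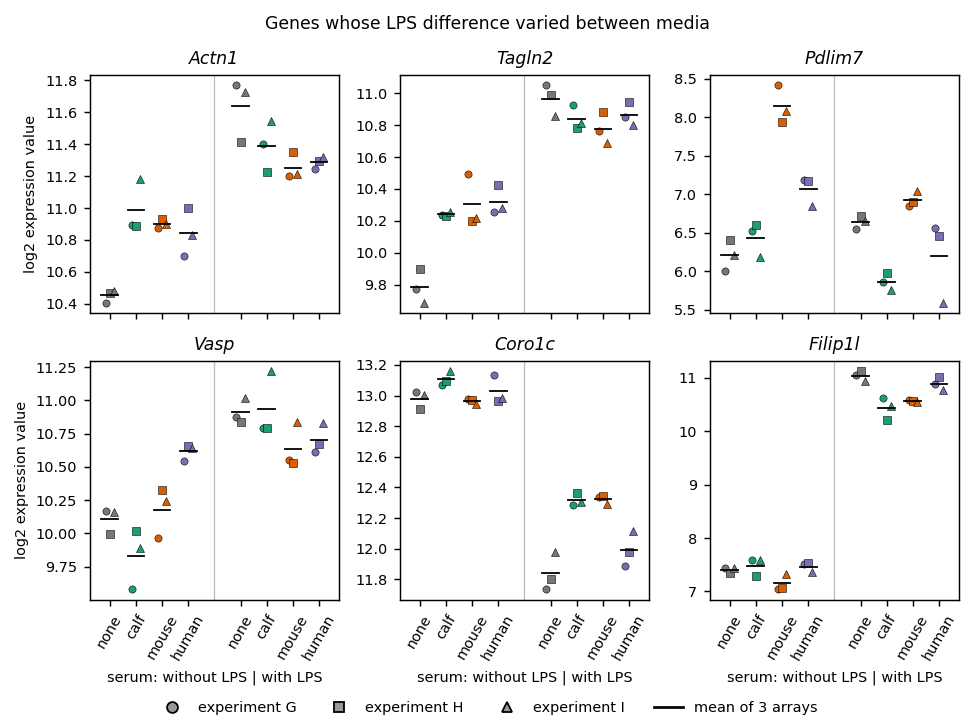
Log2 level of Actn1, Tagln2, Pdlim7, Vasp, Coro1c and Filip1l on each array (symbol: experiment) by serum, without LPS at left and with LPS at right of each panel, with the mean of 3 arrays as a line. For Actn1 and Tagln2 the no serum arrays are the lowest without LPS (10.41 to 10.48 for Actn1) and not with it, and the vertical scales differ between panels.

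Lists of the wider pathway were counted in the same fits. Of the ternary complex factors and their early targets, all 10 tested, 6 rose and 0 fell in each of mouse and human serum and 2 rose and 0 fell in calf serum without LPS, where 4.47%, 4.73% and 0.696% of all genes tested rose in mouse, human and calf serum. In the same order their medians were 0.63, 0.60 and 0.12. Egr1, an early growth response factor, rose by 0.87, 1.48 and 2.02 in calf, mouse and human serum (SE 0.17; adjusted p = 0.002, 9.1e-07 and 1.4e-08). Elk3 rose by 1.54 in mouse and 0.81 in human serum, and Fos by 1.11 in mouse serum (adjusted p 2.8e-09 to 5.0e-05). With LPS averaged over media, 4 of the list were higher and 6 lower, beside 28.9% and 50.5% of all genes. Fos fell by 2.48 (adjusted p = 3.1e-18) and Egr1 rose by 1.01 (1.2e-10).

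Of 8 tested other targets of the myocardin-related factors, 2 rose in mouse, 3 in human and 0 in calf serum, and 0 fell in any. In the same order 4.47%, 4.73% and 0.696% of all genes tested rose, and 5.35%, 5.69% and 2.27% fell. Thbs1 (the adhesive protein thrombospondin 1) rose by 3.21 in mouse and 3.06 in human serum (SE 0.16; adjusted p = 3.4e-12 and 1.5e-11). Its average LPS difference was -1.63, but the fall varied by medium. It was -2.65 with mouse serum, -2.60 with human serum and -0.94 with calf serum. With no serum it was -0.31 (adjusted p = 0.11, no call). The LPS response differed from that value by -2.34 for mouse serum and -2.29 for human serum (adjusted p = 3.9e-07 and 8.6e-07). For calf serum the difference was -0.63 (adjusted p = 0.20, no call). The integrin gene Itga5 rose by 0.99 in mouse and 0.47 in human serum (adjusted p = 4.3e-06 and 0.015), in human serum lost without human serum I or no serum H (0.055 and 0.11). Averaged over media, LPS raised 5 and lowered 2 of the list (28.9% and 50.5% of all genes), with Csrp1 (a LIM protein) higher by 1.02. One of the 5, Ccn2, passed the filter through arrays with LPS alone.

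Of the 8 receptors for serum lipids 5 were tested. The lysophosphatidic acid receptor gene Lpar1 rose by 1.68 in mouse and 1.65 in human serum (SE 0.22; adjusted p = 7.9e-06 and 1.5e-05), and the sphingosine 1-phosphate receptor gene S1pr2 fell by 0.75 in mouse serum (adjusted p = 1.4e-04). S1pr2 also fell by 0.44 in human serum (adjusted p = 0.023), a call lost without any 1 of the 6 arrays of human serum and no serum (0.056 to 0.066). In calf serum 0 of the 5 were called, where 0.696% of all genes tested rose and 2.27% fell. Averaged over media, LPS raised Lpar1 by 2.85 and lowered 4 (28.9% and 50.5% of all genes), of which Lpar2 passed the filter through arrays without LPS alone. Among the 4 were S1pr1, lower by 3.80, and Lpar6, lower by 3.38. S1pr2, also among the 4, differed by medium. It fell by 1.29 with no serum, had -0.02 in calf and -0.28 in human serum with no call, and was higher by 0.31 in mouse serum (adjusted p = 0.039). Lpar1 rose by 3.85 with no serum and by 4.11, 1.63 and 1.79 in calf, mouse and human serum. The mouse and human serum responses differed from that with no serum by -2.225 and -2.06 (adjusted p = 4.4e-05 and 1.9e-04). For calf serum the difference was 0.26 (adjusted p = 0.80, no call). Of 9 tested genes of the Arp2/3 complex and its activators, which build branched filaments, LPS averaged over media lowered 8 and raised 1 (50.5% and 28.9% of all genes). Arpc5l, Wipf1, Wasl and Was fell by 1.07, 0.73, 0.62 and 0.59 (adjusted p 3.2e-15 to 1.5e-10). Without LPS, Arpc5l fell by 0.60 in calf serum (adjusted p = 0.005) and by 0.47 in mouse serum (adjusted p = 0.014), the latter lost without mouse serum H or no serum H (0.059 and 0.068). With the mean of its probe sets neither was called (0.084 and 0.16). In mouse serum Wasl rose by 0.34 and Wipf1 fell by 0.24 (adjusted p = 0.039 and 0.026), each lost without any of 5 single arrays of mouse serum or no serum (0.054 to 0.23). In human serum 0 of these 9 were called, where 4.73% of all genes tested rose and 5.69% fell.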

How the data were processed

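Expression was measured on 24 Affymetrix mouse arrays. The log2 values, 1 per probe set and array, are those the authors deposited; per the submitters' processing notes, Partek and GCRMA were used, with no version named. The log base is not given in the sources used here and was inferred from the values (1.48 to 14.84). Depth is not defined for arrays, and 3 arrays per group limit the precision. A platform table paired probe sets with genes. A probe set passed the filter where 3 or more of the 24 arrays lay above 5.08, the median over the whole table, and the one with the highest mean stood for its gene.

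Group means of 11777 genes were fitted with limma 3.58.1 (R 4.3.3; empirical Bayes with trend and robust) and checked on simulated data. Tests were two-sided, with Benjamini-Hochberg adjustment over all genes within each comparison and a threshold of 0.05. Tables were made with Python 3.11.15. The genes, lists and comparisons were chosen with earlier results of these data known. Named in full were Srf, the actins and the 12 other genes with the largest range of group means, and of each pathway list at most 4 called genes per comparison. Of the 39 probe sets, 5 end in _s_ (Srf, Actg1, Acta2, Pdlim5 and Lmna) and 3 in _x_ (Cnn3, Cfl1 and Gsn). Both endings mark possible cross-hybridisation. Another 10 end in _a_ (several transcripts of a gene). One pathway list is not reported here.

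The letters G, H and I mark shared experiments per the labels. Deviations from the group means correlated with a median r of 0.06 (-0.04 to 0.18) in 84 same-letter pairs and -0.03 in 168 others, and the block is given where it changes a call. Alternatives were 2 other scalings, no filter, a filter higher by 1, the mean of a gene's probe sets, experiment or array batch as a block, plain empirical Bayes, and leaving out each array.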

Additional observations from a re-analysis of the deposited data

Results flagged for a closer look

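All 15 results listed here are differences between the LPS response in a serum and that with no serum that passed the test of the difference itself, on the log2 scale. In calf serum they were -0.58 for Tagln2, 0.82 for Zyx, -0.68 for Filip1l, -0.78 for Actn1 and 0.35 for Coro1c. In mouse serum they were -0.71 for Tagln2, -0.34 for Tpm4, -1.65 for Pdlim7, -0.83 for Actn1 and 0.50 for Coro1c. In human serum they were -0.63 for Tagln2, -0.59 for Tpm4, -0.71 for Vasp, -1.30 for Pdlim7 and -0.74 for Actn1. The 3 sets share the no serum arrays, so a deviation of those arrays enters each of them. What lies behind these differences was not tested.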

How the results depend on the processing

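Of 238 calls over the 37 genes and 17 comparisons, 185 held whichever array was left out. With the experiment as a replicate block 0 calls were lost and 24 gained (19 genes called in human serum without LPS). The change over all genes in that fit is not given here. Plain empirical Bayes lost 37 calls and gave 8 called genes for calf and 7 for human serum with LPS, 5 for human against mouse and 6 for human against calf serum. No filter gave 6 for human against calf serum. The mean of a gene's probe sets gave 5 for calf serum without LPS and 5 for mouse against calf serum, and it lost 31 calls and gained 40. It turned the LPS difference with no serum of Tpm3 to 0.28 and of Arpc5 to 0.35, neither called otherwise (-0.01 and -0.02), since other probe sets of these genes enter. Leaving out 1 array gave 8 to 14 called genes for human serum with LPS (8 without human serum with LPS G), 5 to 8 for human against mouse serum (5 without human serum H or I or mouse serum G or I), 5 to 11 for human against calf serum (5 without human serum H) and 3 to 6 for the LPS response in calf serum (3 without calf serum G or I, calf serum with LPS H or no serum with LPS H). Other causes were not tested. Centring the arrays changed the split for that response to 1 higher and 3 lower, and quantile normalization that of mouse against calf serum to 1 and 1. Neither scaling moved the median of all genes by more than 0.1. With 3 arrays a group, 95% intervals were wide for genes with a large spread, as for Vcl (0.17 to 1.58) and Tpm2 (-0.02 to 1.67) in human serum. Cnn3 and Myl9 lay below the filter on all arrays without LPS, and their LPS calls are among the 238.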

Other observations

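Other probe sets of the same genes could be compared with those used, 56 probe sets of 24 genes. In 389 results where the gene was called, they were called in the same direction in 218, in the opposite one in 7 and not called in 164. Lmna accounted for 6 of the 7 and Gsn for 1. For Lmna, probe sets with mean levels of 10.6 and 9.78 fell with LPS by 0.58 and 0.87 on average, while those at 6.51 and 6.10 rose by 0.35 and 0.57. The lower-level Tagln2 probe set past the filter, at 7.38, rose with LPS by 0.28 and did not differ beyond its error in mouse or human serum (0.06 and 0.12, SE 0.14). A second Pdlim7 probe set, at 5.37, rose in mouse and human serum by 0.97 and 0.90 (adjusted p = 0.008 and 0.016). Tpm3 had 2 further probe sets that rose with LPS, by 0.40 and 0.68, where the one used had 0.07.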
